A study of Mus musculus with 8 samples.

Results

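The colony-stimulating factor genes Csf1, Csf2 and Csf3 and their receptor genes Csf1r, Csf2ra, Csf2rb, Csf2rb2 and Csf3r were followed in red pulp macrophages of the mouse spleen early in sepsis. These 8 genes were chosen by name, as the rows of the count table whose Ensembl IDs carry these symbols, out of 55414 rows in all. The mice were wild type (C57BL/6J), and their splenic macrophages were sorted by flow cytometry 2 h after surgery, which was cecal ligation and puncture (CLP) for 4 libraries and sham surgery (Sham) for the other 4. CLP models sepsis through leakage of gut bacteria from the perforated cecum, and Sham is the control operation. The title names hemolysis in sepsis as the question, and the design holds the single comparison of CLP with Sham. The labels give neither age nor sex and do not tie libraries to separate mice, so the spread that p-values measure may be technical.

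Colony-stimulating factors are secreted proteins that keep myeloid cells alive and drive their growth and maturation. Csf1 (M-CSF) acts through Csf1r, a receptor tyrosine kinase on which tissue macrophages depend, and which red pulp macrophages also need. Csf2 (GM-CSF) binds Csf2ra, which signals through the shared beta chain encoded by Csf2rb. Mice carry a further beta chain gene, Csf2rb2, whose product serves the interleukin-3 receptor. Csf3 (G-CSF) binds Csf3r, mobilises neutrophils from the bone marrow and is produced by macrophages that sense bacterial products.

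Depth ranged over 17333748 to 21409078 counts for CLP and 15392992 to 25665633 for Sham. Levels are in CPM, the counts of a gene scaled to a common library size with TMM factors, and 1 CPM stood for 15.1 to 27.6 reads. Of 14004 genes tested with edgeR's quasi-likelihood test, 43.3% changed at an adjusted p under 0.05, with 19.8% higher and 23.5% lower after CLP. The macrophage label held: 13 red pulp macrophage markers summed to 45060 to 51262 CPM in CLP and 39360 to 47970 CPM in Sham, with 6 of them higher and 2 lower. Among the marker lists of other cells, platelet genes were higher in 4 of 5 tested members (25.3 to 30.1 CPM in sum in CLP, 9.25 to 12.1 CPM in Sham), erythroid genes in 2 of 6 with 1 lower (330.1 to 639 CPM in CLP, 152 to 383 CPM in Sham) and stromal and endothelial genes in 2 of 8 with 0 lower (792 to 882 CPM in CLP, 798 to 883 CPM in Sham). None of 7 monocyte, 8 T cell or 3 eosinophil markers tested was called with edgeR, 1 of 6 B cell markers was lower, and dendritic cell and NK cell lists (7 tested members each) had 1 higher and 1 lower member each. CLP replicate 3 had the highest summed neutrophil, monocyte, T cell, NK cell and erythroid markers and the lowest summed macrophage markers of the CLP libraries. Sham replicate 4 also stood apart: its erythroid markers summed to 383 CPM, against 152 to 170 CPM in the other Sham libraries, and it was the lowest Sham library for all 7 colony-stimulating factor and receptor genes tested. Without it, Csf3 (log2 fold change 6.40), Csf1 (0.84), Csf1r (0.35), Csf2rb (0.33), Csf2rb2 (0.58) and Csf3r (0.47) were still called higher with edgeR, and Csf2ra (0.23, adjusted p = 0.0674) was not. The part of erythroid RNA in these values was not tested. Fewer cells of a type and less RNA per cell cannot be told apart in such sorted bulk samples.

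Of the 8 genes, 7 passed the filter on low counts and all 7 were called higher in CLP, where 19.8% of all tested genes were. Csf3 passed chiefly through its CLP libraries, so its call adds nothing to that count, and Csf2 did not pass. The sizes were uneven. Csf3 stood at more than 100 CPM after CLP against about 1 CPM in Sham, Csf1 was 1.93-fold higher, and the 5 receptor genes were 1.21- to 1.56-fold higher. The receptor calls rested on the scaling of the libraries. Library totals in place of TMM factors shifted the median log2 fold change of all tested genes by -0.32, to -0.37 from -0.05, and called 9.18% of genes higher and 46.0% lower. Csf3 and Csf1 were still called higher on that scale, and none of the 5 receptor genes was called in either direction. On TMM-scaled values the groups did not overlap for 6 of the 7 tested genes, all but Csf2rb2, each with CLP higher. Over all tested genes the groups did not overlap for 41.5% in either direction and for 18.7% with CLP higher. The groups also overlapped for Csf2, which was not tested.

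Among the ligands, Csf3 reached 126, 78.8, 125 and 129 CPM in the 4 CLP libraries, against 1.59, 1.48, 0.932 and 0.164 CPM in the 4 Sham libraries. These values rest on 1964, 1541, 2281 and 1950 reads in CLP and on 44, 36, 16 and 4 reads in Sham. Every CLP library was thus far above every Sham library, CLP replicate 2 was the lowest of its group, and Sham replicate 4 held almost no Csf3 reads. The means were 115 ± 24 CPM in CLP and 1.04 ± 0.65 CPM in Sham (SD, n = 4 each), a 107-fold difference (log2 fold change 6.75, SE 0.42, edgeR adjusted p = 1.00e-05). Only 5 of the 14004 tested genes had a higher log2 fold change than Csf3. Ordered by CPM, it was gene 1937 in CLP and gene 12481 in Sham.

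Csf1, the growth factor of the macrophage lineage, was at 39.0, 34.8, 54.5 and 48.0 CPM in CLP, against 23.5, 23.2, 28.1 and 16.8 CPM in Sham. The groups did not overlap, although the lowest CLP library and the highest Sham library were close. Its means were 44.1 ± 8.9 CPM in CLP and 22.9 ± 4.7 CPM in Sham (SD, n = 4 each). The log2 fold change was 0.95 (SE 0.18, adjusted p = 0.00158), or 0.63 (adjusted p = 0.00832) with library totals. Markers of stroma and endothelium, cells that are a known source of Csf1 in the spleen, had overlapping sums in the groups (792 to 882 CPM in CLP, 798 to 883 CPM in Sham). Pecam1 (481 ± 14 CPM in CLP, 435 ± 42 CPM in Sham) and Stab2 (356 ± 37 CPM in CLP, 382 ± 15 CPM in Sham) made up most of these sums. The sums therefore say little of the rarer markers, and the part of these cells in the Csf1 difference was not tested. Among the markers the collagen genes Col1a1 (4.93 ± 1.71 CPM in CLP, 2.10 ± 0.50 CPM in Sham) and Col3a1 (2.84 ± 0.33 CPM in CLP, 1.197 ± 0.28 CPM in Sham) were the called members. Both are named after their values were seen.

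Csf2, which many immune cells secrete upon activation, was close to the limit of detection. It had 4, 5, 0 and 5 reads in the CLP libraries and 0 reads in each of the 4 Sham libraries. Reads were thus present in 3 of 4 CLP libraries and absent from CLP replicate 3. Over the group, the 14 CLP reads came to 0.204 CPM, while the 0 Sham reads allow up to 0.0321 CPM (3 reads over the 4 Sham libraries together). Against that floor the observed CLP level was 6.36-fold higher, or 5.12-fold with library totals. These ratios allow for counting error in Sham alone and not in the 14 CLP reads, so they are no lower bounds. A two-sided exact permutation test of the CPM gave p = 0.143 over 70 assignments. Without a filter on low counts, edgeR's adjusted p over 26879 genes was 0.0115. T cell markers, whose cells are a known source of Csf2, summed to 21.0 to 60.6 CPM in CLP and 21.3 to 44.3 CPM in Sham, and were highest in the CLP library that held no Csf2 read. A part of other cells in these reads was not tested.

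**Figure D1:**
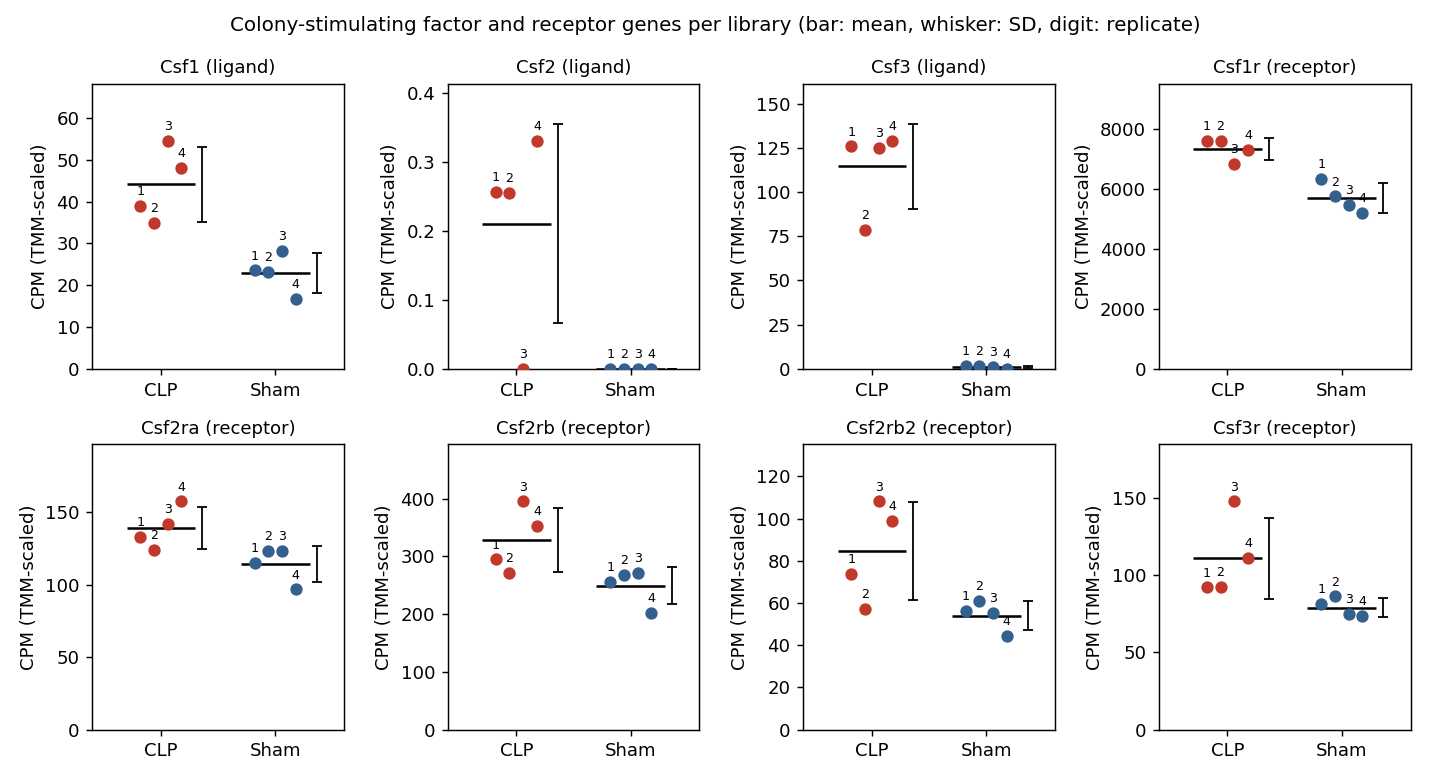
Each panel plots 1 gene in CPM on TMM-scaled totals, with 1 point per library (its replicate number above it), CLP left of Sham, a bar for the mean and a whisker for the SD of 4 libraries. Csf3 lies at 78.8 to 129 CPM in CLP and at 0.164 to 1.59 CPM in Sham, while the receptor panels show groups that lie close to each other.

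Messenger RNAs of cytokines carry AU-rich elements, stretches of the 3′ UTR that proteins such as tristetraprolin (Zfp36) bind to bring about decay. The following are the 30 bases of each ligand's longest 3′ UTR in GENCODE mouse release 21 with the most ATTTA pentamers. They are shown because most of the receptor genes held no pentamer in their 3′ UTR. Capitals mark the pentamers, and the sense strand alone was searched.
Csf1: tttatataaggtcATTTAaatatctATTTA
Csf2: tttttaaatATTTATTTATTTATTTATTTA
Csf3: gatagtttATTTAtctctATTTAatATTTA
They lie, on build GRCm38, at chr3:107741109-107741138 (minus strand), chr11:54247329-54247358 (minus strand) and chr11:98702984-98703013 (plus strand), in the order given. Csf2 held 5 overlapping pentamers in this window and 9 in its 3′ UTR of 317 bases. Csf3 held 6 in 669 bases and Csf1 held 4 in 2111 bases. Among the receptor genes Csf1r held 3 in 1669 bases, much like Csf1, and Csf2ra, Csf2rb, Csf2rb2 and Csf3r held 0. At least 5 pentamers were found in 21.7% of the 20994 genes with a 3′ UTR of 10 bases or more. The longer nonamer TTATTTATT, which overlaps the pentamer, was found in 4 overlapping copies in Csf2 and in none of the other 7 genes, against 7.67% of all genes.

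The window from 250 bases before to 50 bases after the transcript start was at hand in RefSeq's table for 5 of the 8 genes, Csf1, Csf2, Csf2ra, Csf2rb2 and Csf3r. It was searched on both strands for an NF-kB motif, the PU.1 core (GAGGAA), the TATA box (TATAAA) and the AP-1 motif (TGANTCA). The Csf1 window (RefSeq, GRCm38.p6, chr3:107760420-107760719, minus strand) is printed because Csf1 is the called ligand among the 5 genes; capitals mark its match to the NF-kB motif, read on the opposite strand and starting 154 bases before the transcript start.
Csf1 window: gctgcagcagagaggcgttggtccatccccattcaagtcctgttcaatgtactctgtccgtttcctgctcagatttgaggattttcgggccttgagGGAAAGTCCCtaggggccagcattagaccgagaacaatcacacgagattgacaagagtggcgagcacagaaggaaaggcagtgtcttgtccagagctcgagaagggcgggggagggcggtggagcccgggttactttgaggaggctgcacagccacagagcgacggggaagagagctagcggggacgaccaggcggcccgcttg
The NF-kB motif was present in 1.63% of 32851 windows and in none of the other 4 windows searched. PU.1, a transcription factor of the myeloid lineage, had matches in the Csf3r, Csf2ra and Csf2rb2 windows and in 28.3% of all windows. AP-1 letters (7.81% of all windows) and the TATA box (13.6%) were found in none of the 5.

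Among the receptors, Csf1r was by far the most abundant. It was at 7580, 7598, 6822 and 7299.7 CPM in CLP, against 6334, 5745, 5467 and 5179 CPM in Sham. It ranked as gene 6 by CPM in both groups and took 0.618% to 0.694% of all counts in CLP and 0.597% to 0.682% in Sham. On TMM-scaled values the groups did not overlap (7325 ± 362 CPM in CLP, 5681 ± 493 CPM in Sham, SD, n = 4 each), and CLP was 1.29-fold higher (log2 fold change 0.37, SE 0.08, adjusted p = 0.0048). As a share of all counts they overlapped, and with library totals the log2 fold change was 0.05 (SE 0.07, adjusted p = 0.551). In GENCODE release 21, 873 of the 5774 exonic bases of Csf1r overlap Hmgxb3 on the opposite strand. Hmgxb3 was at 44.7 ± 11.2 CPM in CLP and 39.5 ± 2.1 CPM in Sham, far below Csf1r.

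Csf2ra, the chain that binds Csf2, was at 133, 124.0, 142 and 157.5 CPM in CLP, against 115, 123.1, 123.3 and 96.8 CPM in Sham. The groups touched without overlapping. The log2 fold change was 0.28 (SE 0.10, adjusted p = 0.0387) with TMM, and with library totals it turned to -0.04 (adjusted p = 0.736). Leaving out 1 library also ended the call, without CLP replicate 1 (adjusted p = 0.0536), 3 (0.0554) or 4 (0.119) and likewise without Sham replicate 1 (0.0536) or 4 (0.0674).

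Csf2rb and Csf2rb2 are neighbouring copies that encode the shared beta chain and the interleukin-3 receptor's own beta chain. The first 90 coding bases of their transcripts with the longest 3′ UTR (GENCODE release 21, GRCm38, chromosome 15) are printed to show how alike they are; capitals mark the 3 bases that differ.
Csf2rb: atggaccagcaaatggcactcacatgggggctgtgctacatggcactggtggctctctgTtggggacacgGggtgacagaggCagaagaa
Csf2rb2: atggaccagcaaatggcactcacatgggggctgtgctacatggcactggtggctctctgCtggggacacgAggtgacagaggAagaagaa
Of all 50-base words of these transcripts, 18.4% of those of Csf2rb (4900 bases) and 19.0% of those of Csf2rb2 (4740 bases) also occur in the other copy. Reads from such stretches could be split or lost in counting, so the values of each copy are uncertain.

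Csf2rb was at 295, 271.3, 395 and 352 CPM in CLP, against 256, 268, 271.1 and 202 CPM in Sham. CLP replicate 2 lay just above the highest Sham library. The log2 fold change was 0.40 (SE 0.13, adjusted p = 0.0294) with TMM and 0.08 (adjusted p = 0.591) with library totals. Csf2rb2 was at 73.8, 57.4, 108 and 98.8 CPM in CLP, against 56.1, 60.8, 55.1 and 44.2 CPM in Sham, and here the groups overlapped. Its log2 fold change of 0.64 (SE 0.19, adjusted p = 0.0223) was the largest of the 5 receptor genes, and it was 0.33 (adjusted p = 0.154) with library totals. Both calls were lost without CLP replicate 3 (Csf2rb adjusted p = 0.0641, Csf2rb2 0.0591) or CLP replicate 4 (Csf2rb 0.0783, Csf2rb2 0.0608). With the reads of both copies summed, the log2 fold change was 0.45 (adjusted p = 0.0247), lost without CLP replicate 3 (adjusted p = 0.0558) or 4 (0.0698). Csf2rb2 held 20.02%, 17.5%, 21.5% and 21.9% of the reads of both copies in CLP, against 18.0%, 18.5%, 16.9% and 18.0% in Sham, so the balance between the copies overlapped between the groups.

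Csf3r, the receptor of Csf3 and a gene that neutrophils express highly, was at 92.0, 92.5, 148 and 111 CPM in CLP, against 81.6, 86.2, 74.7 and 73.6 CPM in Sham. All CLP libraries were above all Sham libraries, and CLP replicate 3 was the highest. The log2 fold change was 0.49 (SE 0.14, adjusted p = 0.0185) with TMM, 0.17 (adjusted p = 0.329) with library totals, and 0.32 (adjusted p = 0.0135) without CLP replicate 3. Of 14 neutrophil markers 3 passed the filter, and S100a8 and S100a9, which encode the calprotectin subunits, were higher. S100a8 was at 6.93 ± 3.01 CPM in CLP and 1.599 ± 0.876 CPM in Sham, and S100a9 at 9.90 ± 5.64 CPM in CLP and 2.06 ± 1.12 CPM in Sham. The 14 markers summed to 10.6, 16.1, 27.8 and 26.7 CPM in CLP and 6.59, 8.11, 15.9 and 3.95 CPM in Sham, below Csf3r itself in each library. The defining gene Ly6g had 1 read in the 4 CLP libraries and 0 reads in the 4 Sham libraries. The granule genes Elane and Mpo had at most 3 reads in any CLP library and at most 86 in any Sham library. Other granule genes of the list, also below the filter, went both ways. Ltf (0.644 ± 1.008 CPM in CLP, 0.036 ± 0.072 CPM in Sham) and Ngp (0.570 ± 0.330 CPM in CLP, 0.257 ± 0.262 CPM in Sham) averaged higher in CLP. Mmp9 averaged lower (0.288 ± 0.249 CPM in CLP, 0.590 ± 0.316 CPM in Sham). The part of neutrophils in the Csf3r difference was not tested.

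**Figure D2:**
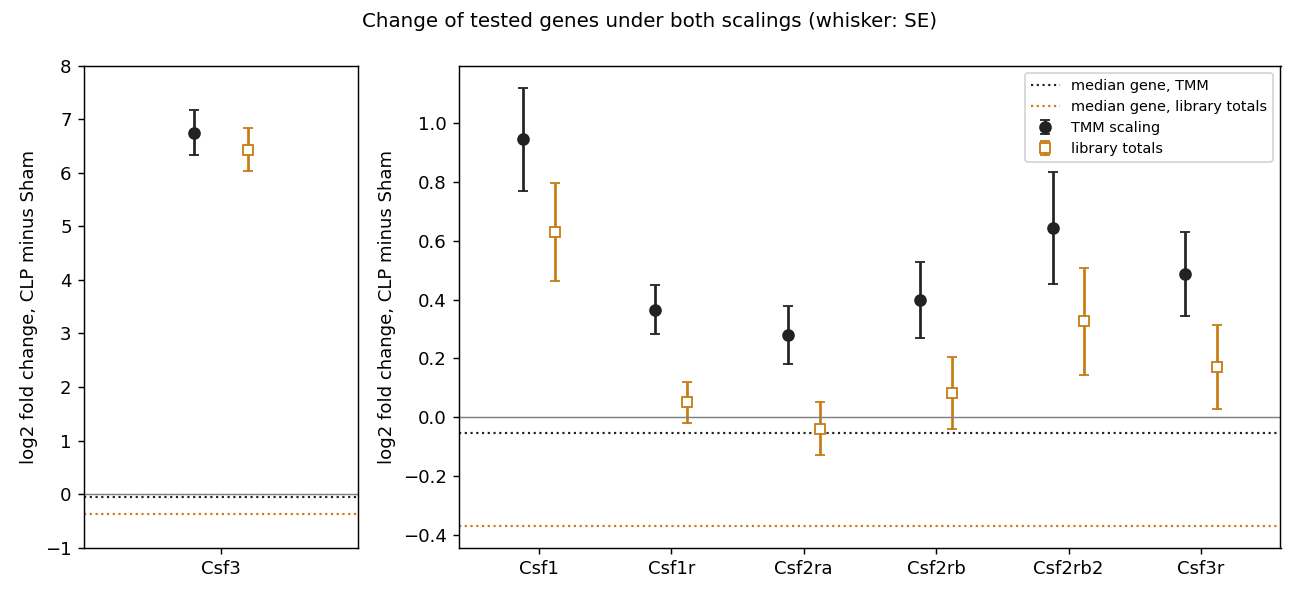
Points give the log2 fold change (CLP minus Sham) of the 7 tested genes with their SE, filled circles with TMM scaling and open squares with library totals, with Csf3 on its own axis; dotted lines mark the median of all tested genes under each scaling (-0.05 with TMM, -0.37 with library totals). The receptor genes lie at 0.28 to 0.64 with TMM and at -0.04 to 0.33 with library totals.

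A change of scaling moves all genes nearly alike, so the distance of a gene from the median of all tested genes is nearly the same under both by construction. Csf1r lay 0.42 above the median gene on the log2 scale, Csf2ra 0.33, Csf2rb 0.45, Csf2rb2 0.70 and Csf3r 0.54, while Csf1 lay 1.00 and Csf3 6.80 above it. Of all tested genes, 11.7% had a higher log2 fold change than Csf2rb2 and 24.8% had a higher one than Csf2ra, the ends of the receptor range.

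Ratios within a library do not depend on the scaling. For 100 Csf3r reads there were 137, 85.2, 84.6 and 116 Csf3 reads in the CLP libraries, against 1.95, 1.72, 1.247 and 0.223 in the Sham libraries, with no overlap. Ligand and receptor reads of this pair were thus similar in number after CLP, whereas in Sham the receptor reads were far more numerous. Such read numbers are not corrected for length, and Csf3 transcripts (median 1413 bases) are shorter than those of Csf3r (3320.5 bases). Per kb of median length, Csf3 averaged 81.1 CPM in CLP and Csf3r 33.4 CPM. For 100 Csf1r reads there were 0.515, 0.458, 0.799 and 0.658 Csf1 reads in CLP, against 0.371, 0.404, 0.515 and 0.324 in Sham, and these ranges overlapped. Csf3 reads outnumbered Csf1 reads in all 4 CLP libraries (226 to 322 Csf3 reads per 100 Csf1 reads), while in Sham there were 0.98 to 6.77. The receptors kept more even proportions, with 1.21 to 2.17 Csf3r reads per 100 Csf1r reads in CLP and 1.29 to 1.501 in Sham. For Csf2ra there were 28.2 to 37.7 reads per 100 reads of both beta chain copies in CLP and 36.9 to 39.4 in Sham, and both ranges overlapped between the groups.

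Levels of different genes were compared as CPM per kb of transcript, with the median length of the gene's coding transcripts. In CLP the order was Csf1r (3153 ± 156), Csf2rb (158 ± 27), Csf3 (81.1 ± 16.97), Csf2ra (76.8 ± 7.9), Csf3r (33.4 ± 7.9), Csf1 (30.1 ± 6.1), Csf2rb2 (20.8 ± 5.7) and Csf2 (0.263 ± 0.181 CPM per kb, SD, n = 4). The ranges of Csf3 and Csf2ra overlapped, and Csf3 was above Csf2ra in 3 of 4 CLP libraries. The ranges of Csf3r and Csf1 and those of Csf1 and Csf2rb2 overlapped too, but within each of the 4 CLP libraries Csf3r was above Csf1 and Csf1 above Csf2rb2. In Sham the order was Csf1r (2446 ± 212), Csf2rb (120 ± 16), Csf2ra (63.3 ± 6.9), Csf3r (23.8 ± 1.8), Csf1 (15.6 ± 3.2), Csf2rb2 (13.3 ± 1.7) and Csf3 (0.738 ± 0.462 CPM per kb), with Csf2 at 0 reads, and of these neighbours the ranges of Csf1 and Csf2rb2 alone overlapped, with Csf1 above Csf2rb2 in each of the 4 libraries. Csf3 was thus the third of the 8 genes in CLP and the seventh in Sham. The order depends on the length used. For Csf2rb the median length (2083 bases) is shorter than the coding sequence of its transcript with the longest 3′ UTR (2691 bases). Its place above Csf2ra under the median length therefore rests on a length too short for that full mRNA. With the longest transcript in place of the median length, Csf2rb averaged 67.0 CPM per kb in CLP and 50.8 in Sham, below Csf2ra (75.2 in CLP, 62.0 in Sham) and, in CLP, below Csf3. Csf1 then averaged 10.6 CPM per kb in CLP and 5.49 in Sham, below Csf2rb2 (17.8 in CLP, 11.4 in Sham).

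**Figure D3:**
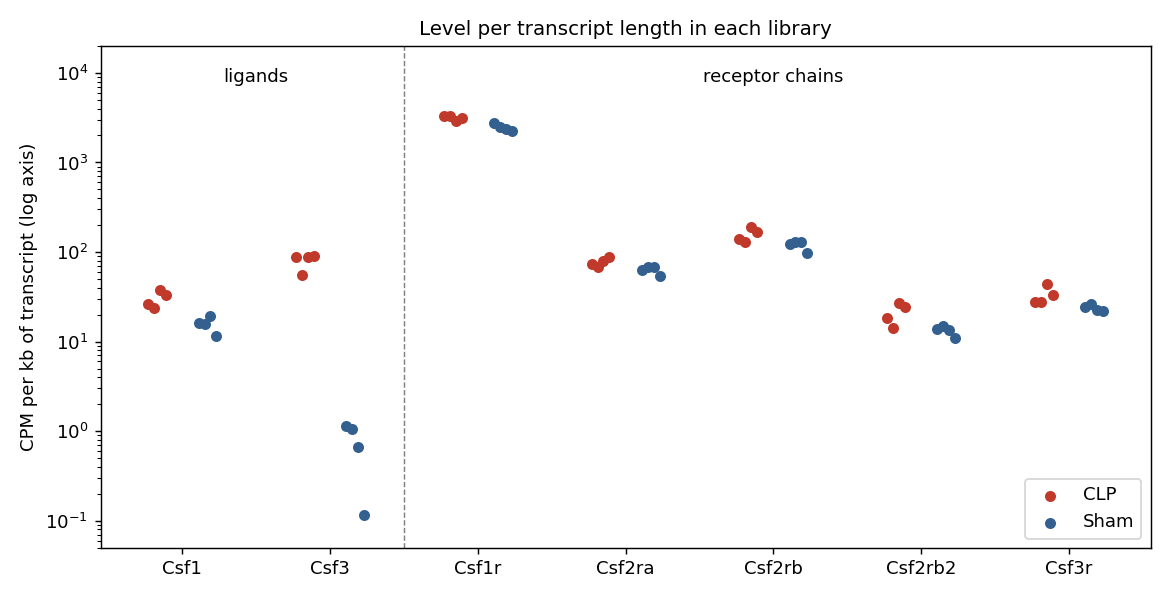
The vertical log axis gives CPM per kb of transcript in each library, CLP left of Sham for each gene, ligands left of the dashed line and receptor chains right of it; Csf2 is not drawn because 5 of its 8 values are 0. Csf3 in CLP (81.1 CPM per kb on average) lies among the receptor chains, and in Sham (0.738) below all of them.

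The genes most like each gene in pattern were those with the smallest root mean square distance between log2 CPM profiles over the 8 libraries, each centred on its own mean, among 9018 named genes at 5 CPM or more. For Csf3 they were Tnip3 (distance 0.65), Cxcl3 (0.85) and Tnfsf9 (0.87), 2 of them cytokine or chemokine genes and Tnip3 a partner of the NF-kB inhibitor A20. For Csf1 they were Znrf1 (0.070), Sav1 (0.084) and Cd300lf (0.094). Csf1r was closest to Bag6 (0.025), Wasf2 (0.026) and Cd82 (0.036), and Csf2ra to Pou6f1 (0.046), Rhbdd1 (0.048) and Atp6v0c (0.053). Csf2rb was closest to Pdlim5 (0.066), Pigv (0.068) and Tmem110 (0.069), Csf2rb2 to Runx1 (0.087), Ptpn1 (0.091) and Tle3 (0.092), and Csf3r to Adpgk (0.079), Mettl6 (0.081) and Wdr43 (0.085). All profiles share the same 8 libraries. The distance depends on the size of the difference between CLP and Sham, so genes with similar fold changes come out close. The genes closest to Csf3 had log2 fold changes of 5.90, 7.78 and 5.71, in the order given, beside 6.75 for Csf3. Their distances were larger than those of the genes closest to the other members.

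Relatives of these ligands and receptors went both ways. Of 9 genes, 6 were tested, 2 were higher and 1 was lower (median log2 fold change 0.23, against -0.05 over all genes tested), where 19.8% of all tested genes were higher and 23.5% lower. Il3 and Il5, whose receptors share the beta chain of Csf2, had 0 reads in all 8 libraries, and Il34, the other ligand of Csf1r, was at 0.593 ± 0.390 CPM in CLP and 0.443 ± 0.218 CPM in Sham (adjusted p = 0.61). Kitl, the ligand of the receptor Kit, fell to 39.4 ± 12.6 CPM in CLP, against 79.0 ± 7.9 CPM in Sham (log2 fold change -1.01, SE 0.22, adjusted p = 0.00597). Kit (log2 fold change 0.47, adjusted p = 0.0252) and Il3ra (0.27, adjusted p = 0.0272), the alpha chain of the interleukin-3 receptor, were higher with TMM. Neither was called with library totals (0.15 and -0.04, in that order). Kit lost its call without CLP replicate 1, 3 or 4 (adjusted p up to 0.0597), and Il3ra without CLP replicate 1 or 4 or Sham replicate 4 (up to 0.0878). The mast cell and basophil genes Fcer1a and Mcpt8 had 0 reads in all libraries.

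Genes that carry the signal from these receptors went both ways. All 25 were tested, 12 were higher and 5 lower (median log2 fold change 0.21), against 19.8% higher and 23.5% lower among all tested genes. With library totals 8 were higher and 6 lower, against 9.18% and 46.0% of all genes. Jak2, the kinase bound to the beta chain, reached 277, 273, 353 and 345 CPM in CLP, against 112, 115, 123 and 98.5 CPM in Sham, with a wide gap between the groups. Its log2 fold change was 1.48 (SE 0.11, adjusted p = 2.73e-06). Pik3r1, a regulatory subunit of PI3 kinase and the most abundant of the 25, was at 3523 ± 324 CPM in CLP and 1255 ± 186 CPM in Sham, and Stat3, which Csf3r activates, at 487 ± 95 CPM in CLP and 262 ± 38 CPM in Sham (log2 fold change 0.89, adjusted p = 0.000945). The paired factors Stat5a and Stat5b, which act downstream of Csf2, moved in opposite directions: Stat5a was at 34.1 ± 9.8 CPM in CLP and 20.9 ± 0.9 CPM in Sham (log2 fold change 0.70, adjusted p = 0.00809), and Stat5b at 94.6 ± 2.8 CPM in CLP and 116 ± 4 CPM in Sham (-0.29, adjusted p = 0.00343). Stat5a was not called with library totals (0.38, adjusted p = 0.0729). The other lower members were the kinases Tyk2 and Fes, the adaptor Gab3, and Ptpn6, which encodes the phosphatase SHP-1. Stat5a and these 5 lower genes were named after their values were seen.

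Most feedback brakes and early targets of the receptors were higher, with 15 of 19 tested members higher and 1 lower (median log2 fold change 0.85), against 19.8% higher and 23.5% lower among all tested genes. With library totals 12 were higher and 2 lower, against 9.18% and 46.0%. Socs3, the brake on Csf3r signalling and the most abundant member, reached 3899, 3444, 3302 and 3396 CPM in CLP, against 606, 687, 562 and 199.9 CPM in Sham (log2 fold change 2.77, SE 0.35, adjusted p = 0.000421). Sham replicate 4 was the lowest of its group for it. Bcl2a1b, a survival gene with near-identical copies whose reads may be shared, was at 130 ± 26 CPM in CLP and 15.1 ± 2.4 CPM in Sham, and Socs1 at 40.2 ± 13.8 CPM in CLP and 7.40 ± 1.64 CPM in Sham. Cish, a target and brake of STAT5, was at 25.6 ± 4.5 CPM in CLP and 6.69 ± 1.41 CPM in Sham (log2 fold change 1.94, adjusted p = 1.53e-05). The lower member was Cbl (log2 fold change -0.30, adjusted p = 0.00322), the ubiquitin ligase that takes activated Csf1r out of service, and both Cish and Cbl were named after their values were seen. These genes also answer to other cytokines.

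Of 6 genes for the cleavage of receptors at the cell surface, 3 were higher and 1 lower (median log2 fold change 0.53), beside shares of 19.8% higher and 23.5% lower over all tested genes. With library totals 3 were higher and 2 lower, beside 9.18% and 46.0%. Adam17, the protease that sheds Csf1r, was at 283, 263, 336 and 331 CPM in CLP, against 196, 183, 203 and 176 CPM in Sham (log2 fold change 0.68, SE 0.09, adjusted p = 0.000172). Its partner Rhbdf2 (iRhom2) was at 326 ± 57 CPM in CLP and 172 ± 16 CPM in Sham, and its inhibitor Timp3 at 8.15 ± 1.19 CPM in CLP and 3.58 ± 1.51 CPM in Sham, so protease, partner and inhibitor all rose. Frmd8, which stabilises iRhom proteins, fell by 0.55 on the log2 scale (adjusted p = 0.00128) and was the lower member; it was picked for mention from its value.

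Regulators of cytokine mRNA stability had 8 of 11 members higher and 1 lower (median log2 fold change 0.41), compared with 19.8% and 23.5% of all tested genes. With library totals 4 were higher and 3 lower, compared with 9.18% and 46.0%. Zfp36, which binds AU-rich elements, was the most abundant, at 1545 ± 34 CPM in CLP and 1008 ± 180 CPM in Sham (log2 fold change 0.62, adjusted p = 0.0017). Zc3h12a (Regnase-1, an RNase for cytokine mRNAs) was at 390.3, 357, 380.4 and 391 CPM in CLP, against 127, 129, 135 and 77.3 CPM in Sham, and its relative Zc3h12c at 20.8 ± 4.0 CPM in CLP and 5.63 ± 1.13 CPM in Sham. Zfp36l1 was at 805 ± 232 CPM in CLP and 391 ± 61 CPM in Sham (log2 fold change 1.04, adjusted p = 0.00352). Zfp36l2 was the lower member, with a log2 fold change of -0.68 and an adjusted p of 0.0386. It too was picked from its value, and its call was lost without any single library but CLP replicate 2 (adjusted p 0.0597 to 0.0975).

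The transcription factors known for Csf1r expression and macrophage identity were all called, 7 of 11 higher and 4 lower (median log2 fold change 0.76), where 43.3% of all tested genes were called, 19.8% higher and 23.5% lower. With library totals 6 were higher and 4 lower, where 9.18% and 46.0% of all genes were. Cebpa, a factor of early myeloid cells, had the largest fall, with 12.4, 11.2, 9.70 and 9.07 CPM in CLP, against 52.6, 42.0, 42.3 and 50.2 CPM in Sham (log2 fold change -2.14, SE 0.12, adjusted p = 9.19e-07). The related Cebpd rose to 315 ± 66 CPM in CLP, against 104 ± 35 CPM in Sham, and Ets2, which acts on the Csf1r promoter, to 648 ± 123 CPM in CLP, against 209 ± 38 CPM in Sham. Spi1, which encodes PU.1, was at 299 ± 32 CPM in CLP and 151 ± 16 CPM in Sham (log2 fold change 0.99, adjusted p = 2.50e-05), and Spic, the most abundant of the 11 and the factor red pulp macrophages need, at 2213 ± 370 CPM in CLP and 1186 ± 118 CPM in Sham. Maf, a factor that restrains macrophage self-renewal, was lower (log2 fold change -0.82, adjusted p = 0.004), as was Irf8 (-0.35, adjusted p = 0.0288). The Irf8 call did not survive the removal of CLP replicate 2, of CLP replicate 3 or of any 1 Sham library (adjusted p 0.0622 to 0.0894). Spi1, Maf and Irf8 were named after their values were seen.

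**Figure D4:**
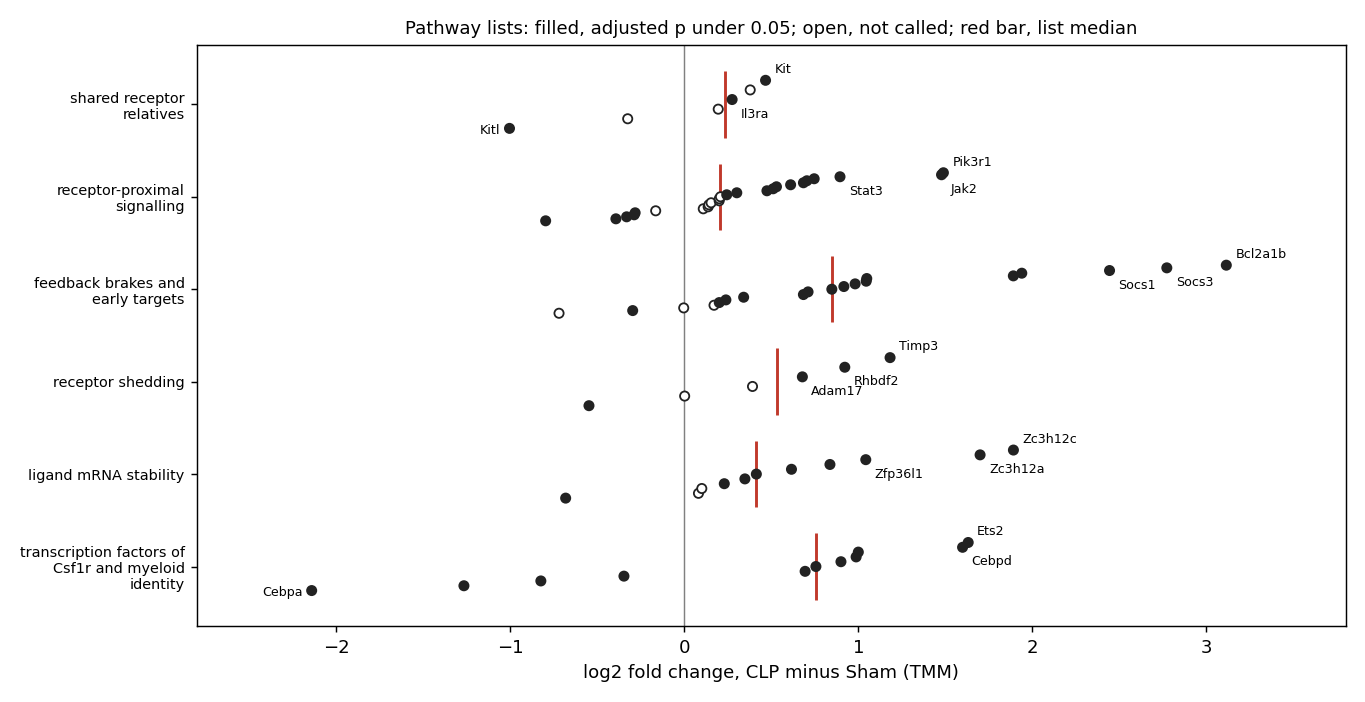
Each point is 1 tested gene of 6 lists, placed by its log2 fold change (CLP minus Sham, TMM scaling), filled where the adjusted p was under 0.05 and open where it was not, with a bar at the list median. The feedback list has the highest median (0.85), and the transcription factors split into 7 higher and 4 lower genes.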

How the data were processed

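Raw counts per Ensembl ID were deposited as 1 table with 1 column per library, from a stranded Illumina TruSeq kit and an Element AVITI, per the labels' protocols. The submitters' processing notes name FastQC, STAR 2.7.10b, featureCounts, DESeq2 and mm39, with no roles. Annotation release and strand setting of the counting: not given in the sources used here. Whether the counting kept apart the reads of overlapping genes on opposite strands is therefore not known. Symbols, transcripts and lengths are from GENCODE mouse release 21 (GRCm38, a different build, used for names, lengths and printed sequences; 52081 of 55414 IDs matched), and promoter windows from RefSeq. Groups were read from the titles.

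edgeR 4.0.16 (R 4.3.3) tested the 14004 genes that passed filterByExpr, with TMM scaling (factors 0.873 to 0.915 in CLP, 1.08 to 1.15 in Sham), a robust quasi-likelihood F-test on the 2 groups without covariates, and Benjamini-Hochberg adjustment over all tested genes at 0.05. Log2 fold changes are CLP minus Sham; their SE is the absolute value over the square root of F. No pair of libraries in a group agreed within sampling noise (chi-square per degree of freedom at least 8.91). The 8 genes and all lists were chosen with earlier results of these data known. Each of 6 pathway lists (81 genes) gave its 3 largest called changes averaging 5 CPM or more and its most abundant gene; 12 marker lists are given by counts and sums. The test was tried on simulated data first. Alternatives were DESeq2 1.42.0, limma-voom (limma 3.58.1), DESeq2 size factors, library totals, other low-count filters, 1 surrogate variable (sva 3.50.0), replicate numbers as a block, leaving out each library, summing both beta chain copies, and longest transcripts.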

Additional observations from a re-analysis of the deposited data

Results flagged for a closer look

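In groups of 4 libraries, a value was singled out when the gap to its nearest neighbour, as a share of the group's range, exceeded Dixon's 95% critical value, which chance does in about 1 of 20 groups; 83 groups were looked at and 5 met this. Csf3 in CLP replicate 2 was at 78.8 CPM, below the 125 to 129 CPM of the other CLP libraries and far above the Sham libraries. In Sham replicate 4, Pik3r1 was at 976 CPM (1334 to 1358 CPM in the other Sham libraries), Zfp36 at 739.6 CPM (1082 to 1127 CPM) and Zc3h12a at 77.3 CPM (127 to 135 CPM). In Sham replicate 3, Frmd8 was at 27.6 CPM (31.8 to 32.5 CPM in the others).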

How the results depend on the processing

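The direction and call of Csf3 (log2 fold change 6.40 to 7.10) and Csf1 (0.63 to 1.09) held under every alternative run. Library totals in place of TMM gave 1286 genes higher and 6435 lower (16.7% of calls higher, against 45.6%), and log2 fold changes of 0.051 for Csf1r, -0.038 for Csf2ra (turned), 0.082 for Csf2rb, 0.33 for Csf2rb2, 0.17 for Csf3r and 0.13 for both beta chain copies summed, none of them called; Il3ra turned to -0.044. The lists then had 0 relatives higher, 2 brakes lower, 2 shedding genes lower, and 4 stability genes higher and 3 lower. Without a filter on low counts Csf2rb2 (0.62, adjusted p = 0.102) and the summed copies (0.42, adjusted p = 0.0554) lost their calls, with 0 relatives higher and 0 stability genes lower. The labels do not say whether the replicate numbers pair the libraries. Correlations of same-numbered deviations were -0.19 to 0.26, and with 4 libraries per group they cannot settle it. With the replicate numbers as a block, Csf2ra (0.28, adjusted p = 0.0749), Csf2rb2 (0.61, 0.0784) and Csf3r (0.46, 0.0503) were not called. In that fit 0 stability genes were lower, and 2799 genes were higher and 3290 lower. Of the CLP libraries, replicate 3 correlated best with its own number in Sham, and the other 3 did not. Leaving out each library gave 0.22 to 0.35 for Csf2ra, 0.30 to 0.48 for Csf2rb, 0.50 to 0.79 for Csf2rb2 and 0.34 to 0.54 for the summed copies, 0 to 2 relatives higher, 1 to 2 brakes lower (2 without Sham replicate 1) and 0 to 1 stability genes lower. Per kb of the longest transcript, levels in CLP and Sham were 10.6 and 5.49 for Csf1, 1558 and 1208 for Csf1r and 67.0 and 50.8 for Csf2rb, and 11.4 for Csf2rb2 in Sham. With library totals they were 2821 and 2723 for Csf1r, 68.7 and 70.5 for Csf2ra, and 26.5 for Csf3r in Sham. Why calls changed was not tested. Depth limits Csf2 most, at 0 to 5 reads per library.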
